A study of Mus musculus with 21 samples.

Results

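Inflammatory monocytes that had entered the lungs of DBA2 mice with LN4K1 metastases (lung TIMs, n = 5) were set against inflammatory monocytes from the bone marrow of tumor-free DBA2 mice (BM IMs, n = 3). These were 8 of the 21 samples in the study, and they were picked by their sample labels alone, with no measured value. LN4K1 is a metastatic line derived from the mouse squamous lung cancer line KLN-205, and its cells were given intravenously, so the lung lesions were experimental metastases. The mice carried no engineered allele that the sample labels or the methods name, and the animals of the study were young adults of both sexes when injected, without a statement of which mice gave which library. Tumor-bearing lungs were minced and digested with enzymes before the sort, while marrow donors had neither tumor nor injected cells, so that tumor, organ and digestion cannot be told apart here. The labels give a monocyte isolation kit and a sort, and the cells taken were live, CD45+, CD11b+, Ly6C-high and Ly6G-. For lung tissue the methods add that Siglec-F+ cells were gated out together with dead cells to discard alveolar macrophages and eosinophils. A supplementary figure legend gives a Siglec-F- gate in the sort from tumor samples and from healthy marrow. The other groups were TIMs from LN2E1 primary lung tumors (n = 5), TIMs from LN2E1 lymph node metastases (n = 5) and BM IMs (n = 3), all from FVB mice, with LN2E1 a squamous lung cancer line placed directly in the lung. The labels number the samples of a group as replicates and the methods call them technical replicates, so the p-values measure only the spread between these samples.

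Inflammatory monocytes are made in the bone marrow from dividing progenitors and leave it through the chemokine receptor CCR2. They then circulate briefly and enter inflamed or tumor-bearing tissue, where they can become macrophages or dendritic cells. On the way they meet cytokines, interferons and microbial products, and signals through NF-kB, AP-1, JAK-STAT and interferon regulatory factors change which chemokines, receptors and antigen-presenting molecules they make.

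The values are raw read counts for 23420 gene symbols, with totals between 81872688 and 85617214 in BM IM libraries and between 82555019 and 101043568 in lung TIM libraries. Levels are given as CPM, which is the count divided by the library total in units of 1e6 reads, after scaling with TMM factors over all libraries, and a count of 3 came to between 0.0299 and 0.0317 CPM in BM IM libraries, the limit that a count of 0 allows for counting error only. Lung TIM library 3 stood apart from the other lung libraries. Over 8433 genes with a mean log2 CPM above 3, its Pearson r with them was between 0.878 and 0.923, against 0.965 to 0.989 among the other 4 lung libraries and 0.978 to 0.982 among the BM IM libraries. It also had 167 of these genes at more than 2 log2 units from the mean of the other lung libraries, where the other 4 had between 14 and 35. Across 7971 genes with a matched transcript, the deviation of library 3 had a Spearman rho of -0.18 with transcript length and of -0.39 with GC content. For length, lung library 5 had a stronger value of -0.32, and lung libraries 1, 2 and 4 had values from 0.21 to 0.26. For GC content the other 4 lung libraries had values from 0.10 to 0.34. Where leaving this library out moved a count of list members by over 1.5 times, both counts are given, and some smaller moves are given too.

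The markers of the sort were present in every library. Ptprc, which encodes CD45, stood at 664, 741 and 737 CPM in the BM IM libraries and at 1552, 1671, 1325, 1801 and 1204 CPM in the lung TIM libraries. Its level was higher in all 5 lung libraries, with a log2 fold change of 1.01 ± 0.16 (SE) and an adjusted p of 0.00146 (quasi-likelihood F-test of edgeR, adjusted by Benjamini-Hochberg across 13624 genes, as for every adjusted p of this comparison). Itgam, which encodes CD11b, had 546, 511 and 488 CPM in BM IMs and 967, 1065, 327, 871 and 696 CPM in lung TIMs. The groups overlapped through lung library 3 alone, and the log2 fold change was 0.53 (adjusted p = 0.271) with it and 0.73 (adjusted p = 0.0035) without it. Ly6c2, a gene of the Ly6C antigen, was at 2512, 2728 and 2509 CPM in BM IMs and at 1525, 1323, 1659, 1219 and 1688 CPM in lung TIMs. It fell by 0.88 ± 0.13 on the log2 scale (adjusted p = 0.000903), and its neighbour Ly6c1 fell by 0.86 ± 0.11 (adjusted p = 0.000507), both without overlap. Ccr2, the receptor by which these cells leave marrow, had 1247, 1379 and 1273 CPM in BM IMs and 2617, 2918, 2756, 2676 and 2353 CPM in lung TIMs. That is a rise of 0.96 ± 0.12 (adjusted p = 0.000269) in 5 of 5 lung libraries.

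Genes of other monocyte states moved as well. Cd14, the co-receptor for lipopolysaccharide, stood at 409, 414 and 533 CPM in BM IMs and at 2483, 2052, 4251, 3661 and 2404 CPM in lung TIMs, with no overlap (log2 fold change 2.64 ± 0.27, adjusted p = 0.00012). Treml4, a gene of Ly6C-low monocytes, rose by 2.75 ± 0.18 (adjusted p = 6.27e-06) and Nr4a1, the nuclear receptor those cells depend on, rose by 2.24 ± 0.24 (adjusted p = 0.000163). Spn, which encodes their surface marker CD43, fell by 1.48 ± 0.28 (adjusted p = 0.0039). Spn was at 40, 46.4 and 42.8 CPM in BM IMs and at 14.2, 10.3, 27.9, 15.2 and 14.1 CPM in lung TIMs, so that lung library 3 lay nearest to marrow. Of the 15 genes listed for the sort and for monocyte identity, 8 rose (10 without lung library 3) and 3 fell, with a median log2 fold change of 0.62 beside 0.03 over all genes tested. Over all genes, 13.9% were called higher and 11% lower at an adjusted p under 0.05.

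Across the 13624 genes tested, 3389 changed at an adjusted p under 0.05, which is 24.9% of them, with 1892 higher and 1497 lower in lung TIMs. The criteria for a DEG were taken from the methods and ask for a small adjusted p together with a large change. The study applied them to DESeq2 with shrunken changes, and here they were applied to edgeR. With an adjusted p below 0.0001 and more than 1 log2 unit of change either way, 405 genes were DEGs (2.97%), and of these 165 were higher and 240 lower. Without lung library 3, 5036 genes changed (2744 higher, 2292 lower) and 840 were DEGs. Of the 3389 genes, 3377 were also called without that library, all in the same direction. Leaving out a BM IM library left 2134 to 2355 changed genes and 115 to 133 DEGs.

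The 12 steepest rises, taken over genes whose log2 CPM averaged more than 3 and whose groups did not overlap, are given first. Tgm2, a transglutaminase that crosslinks proteins, had 1.28, 0.589 and 0.613 CPM in BM IMs and 478, 317, 102, 379 and 231 CPM in lung TIMs. Every lung library lay far above every marrow library, and the log2 fold change was 8.43 ± 0.68 (adjusted p = 2.46e-05). Tgm2 lies at chr2:158116402-158146436 on the minus strand (GRCm38, GENCODE vM21) and shares exon bases with Rprd1b, whose reads could not be set apart in unstranded libraries. Socs3, a feedback inhibitor of cytokine receptors that signal through STAT3, stood at 5.75, 4.87 and 24.3 CPM in BM IMs and at 3394, 4526, 1079, 2630 and 3885 CPM in lung TIMs (log2 fold change 7.98 ± 0.86, adjusted p = 0.00015). Il1b, the cytokine interleukin-1 beta, was at 5.48, 5.63 and 20 CPM in BM IMs and at 998, 1077, 2725, 1841 and 1112 CPM in lung TIMs (7.14 ± 0.71, adjusted p = 8.63e-05). For both genes marrow library 3 was the highest of the marrow group, and without it the log2 fold changes were 9.12 for Socs3 and 8.05 for Il1b. Saa3, an acute-phase serum amyloid protein, had 1.58, 1.3 and 1.88 CPM in BM IMs and 132, 165, 150, 324 and 299 CPM in lung TIMs (7.0 ± 0.45, adjusted p = 6.19e-06). Ier3, an early response gene that restrains cell death, was nearly level across marrow at 15.7, 16.5 and 16.1 CPM and stood at 533, 591, 431, 704 and 905 CPM in lung TIMs (5.22 ± 0.27, adjusted p = 2.34e-06).

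The other genes of these 12 were Gbp4, Lrg1, Cxcl9, Upp1, Gbp9, Gcnt2 and Clec4n, with log2 fold changes from 4.75 to 6.34. Genes of lower mean level, described with their lists, had rises as steep or steeper. Lrg1 encodes a glycoprotein of the acute-phase response, Upp1 a uridine phosphorylase and Clec4n the fungal receptor Dectin-2. The plot of levels by library shows these patterns beside genes that fell.

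**Figure D1:**
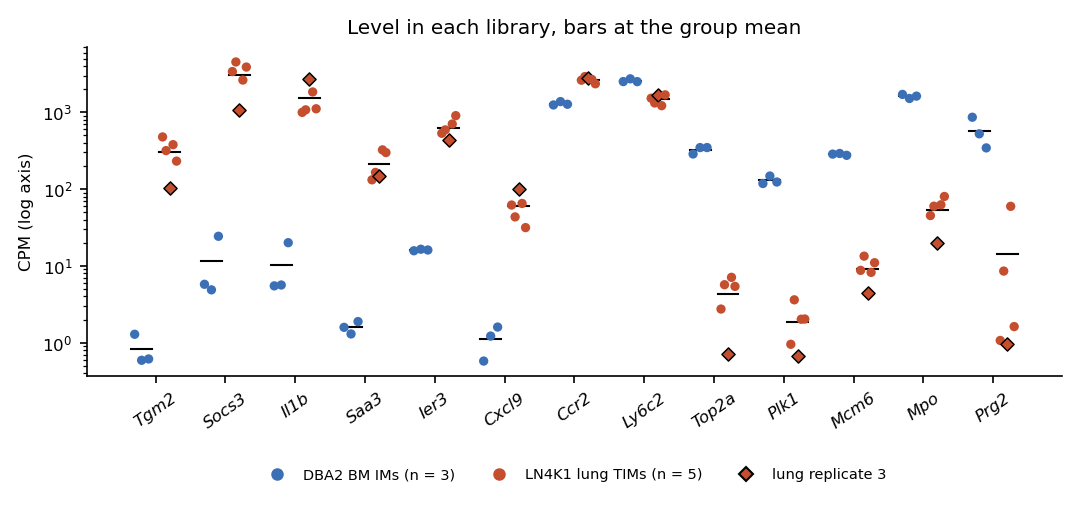
CPM of 13 genes in each library on a log axis, with DBA2 BM IMs in blue, LN4K1 lung TIMs in red, lung replicate 3 as an outlined diamond and bars at the group mean. Tgm2, Socs3, Il1b, Saa3, Ier3 and Cxcl9 sit higher in all 5 lung libraries, Ccr2 is higher by a smaller step, and Top2a, Plk1, Mcm6, Mpo and Prg2 sit below every marrow library.

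All 10 candidate genes that the study selected rose. That list was chosen partly on these samples, so its direction is not independent evidence. Of these, 6 were DEGs by edgeR, and the median log2 fold change of the list was 2.65. The study made its selection with DESeq2, so the count of 6 is no check of that selection. Cfb, factor B of the alternative complement pathway, had 22.8, 29.8 and 19.9 CPM in BM IMs and 423, 400, 228, 430 and 261 CPM in lung TIMs (3.78 ± 0.30, adjusted p = 2.1e-05). Spon1, the matrix protein spondin 1, stood at 8.3, 11.7 and 17.5 CPM in BM IMs and at 190, 219, 59.2, 192 and 106 CPM in lung TIMs. The groups did not overlap, lung library 3 was the lowest of the lung group, and the log2 fold change was 3.54 ± 0.49 (adjusted p = 0.000708). Icam1, an adhesion molecule, rose by 2.63 ± 0.24, the stress gene Gadd45b by 2.68 ± 0.19 and the transcriptional regulator Csrnp1 by 2.50 ± 0.20. Rises were smaller for Ifitm2 at 1.37 ± 0.12, for Klf7 at 1.12 ± 0.17 and for the adaptor Sdcbp at 0.96 ± 0.11. The study paired spondin 1 with the receptor LRP8 and with TGF-beta1 signalling in cancer cells, which monocyte RNA does not measure. In the monocytes, Lrp8 stood between 1.15 and 1.69 CPM in BM IMs and between 0.324 and 1.67 CPM in lung TIMs (log2 fold change -0.84, adjusted p = 0.328). Tgfb1 had 33.6, 53.9 and 43.6 CPM in BM IMs and 99.8, 88.8, 35.9, 75.6 and 70.4 CPM in lung TIMs, where lung library 3 fell within the marrow range. Its log2 fold change was 0.69 (adjusted p = 0.136), and it passed the test without lung library 3 at 0.86.

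Of 16 inflammatory cytokine genes tested, 10 rose and none fell (median log2 fold change 1.80). Il1rn, the antagonist of interleukin-1, had 14.2, 15.9 and 18.4 CPM in BM IMs and 256, 162, 269, 203 and 147 CPM in lung TIMs (3.60 ± 0.26, adjusted p = 1.25e-05). Il1a was near 0 in marrow and at 8.42 to 13.2 CPM in lung TIMs, and its log2 fold change of 7.04 ± 1.05 became 12.95 without marrow library 1, the only marrow library with a count. Il6 stood at 0.257, 0.15 and 0.496 CPM in BM IMs and at 3.54, 4.33, 23.1, 8.88 and 4.9 CPM in lung TIMs. Lung library 3 was far above the others, and the log2 fold change of 4.81 ± 0.83 was 4.09 without it.

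Of 12 CC chemokine genes 11 rose, with a median log2 fold change of 4.16, and of 12 CXC chemokine genes 7 rose, with a median of 2.63; none fell in either list. Ccl7, a ligand of CCR2, had 0.411, 0.369 and 0.613 CPM in BM IMs and 25.1, 15.1, 58.4, 34.4 and 52.6 CPM in lung TIMs (6.24 ± 0.55, adjusted p = 4.47e-05). Ccl24, an attractant of eosinophils, was at 0.349, 0.0898 and 0.686 CPM in BM IMs and at 26.9, 18.1, 16.8, 33.8 and 28.6 CPM in lung TIMs (5.97 ± 0.62, adjusted p = 0.000122, and 6.74 without marrow library 3). Cxcl11 and Cxcl9, genes for ligands of CXCR3, a chemokine receptor of T cells, were both low in marrow and high in every lung library. GENCODE vM21 types Cxcl11 as a polymorphic pseudogene, and whether its RNA gives a working protein in DBA2 mice was not tested. Cxcl11 had 0.123, 0.0898 and 0.169 CPM in BM IMs and 38.2, 25, 36.5, 28.4 and 22.7 CPM in lung TIMs (7.80 ± 0.35, adjusted p = 9.76e-07). Cxcl9 had 0.575, 1.22 and 1.59 CPM in BM IMs and 62, 43.4, 101, 65 and 31.5 CPM in lung TIMs (5.67 ± 0.53, adjusted p = 5.93e-05).

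Chemokine receptors moved less evenly, with 6 of 13 higher and 1 lower. The formyl peptide receptors Fpr1 and Fpr2 rose by 3.56 ± 0.39 and 2.75 ± 0.27, and Ccr1 by 1.86 ± 0.12 (adjusted p = 6.69e-06). Cxcr4, which holds cells in the marrow, was the gene that fell. It stood at 25.4, 30.7 and 35 CPM in BM IMs and at 8.43, 5.56, 7.97, 8.92 and 6.36 CPM in lung TIMs, without overlap (log2 fold change -2.10 ± 0.20, adjusted p = 5.98e-05).

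Subunits and inhibitors of NF-kB, the factor behind many of these cytokine genes, rose in 12 of 18 cases with none lower (median 0.85). Nfkbia, its best known inhibitor, was at 523, 329 and 329 CPM in BM IMs and at 1087, 923, 1625, 1250 and 1074 CPM in lung TIMs (1.52 ± 0.23, adjusted p = 0.00123). Bcl3, a nuclear partner of NF-kB, had 44, 18.7 and 50.6 CPM in BM IMs and 254, 224, 164, 270 and 258 CPM in lung TIMs (2.55 ± 0.33, adjusted p = 0.000485). Both genes were separate between groups in every library. Among AP-1 and other early response factors, 12 of 22 rose (15 without lung library 3) and none fell (median 1.63), with Egr2 at 4.16 ± 0.47. Feedback genes of JAK-STAT signalling rose in 7 of 13 cases (median 1.06), and in 10 without lung library 3. Socs1, which blocks interferon receptor signalling, stood at 2.97, 3.62 and 3.29 CPM in BM IMs and at 30.7, 24.6, 25.3, 27.3 and 27 CPM in lung TIMs (2.96 ± 0.16, adjusted p = 2.89e-06). Cish, another inhibitor of this family, rose by 4.76 ± 0.67 (adjusted p = 0.000749), with lung library 3 at 9.64 CPM and the other 4 between 34.2 and 39.6 CPM. The summed level of the JAK-STAT list was 3853 CPM in lung library 3 and between 7691 and 9489 CPM in the other lung libraries, against 1613 to 1918 CPM in marrow. Dual-specificity phosphatases and Sprouty-type inhibitors of MAPK signalling rose in 5 of 10 cases, in 3 without marrow library 1 or 2 and in 7 without lung library 3. Dusp16 rose by 4.44 ± 0.50 (adjusted p = 0.000187).

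**Figure D2:**
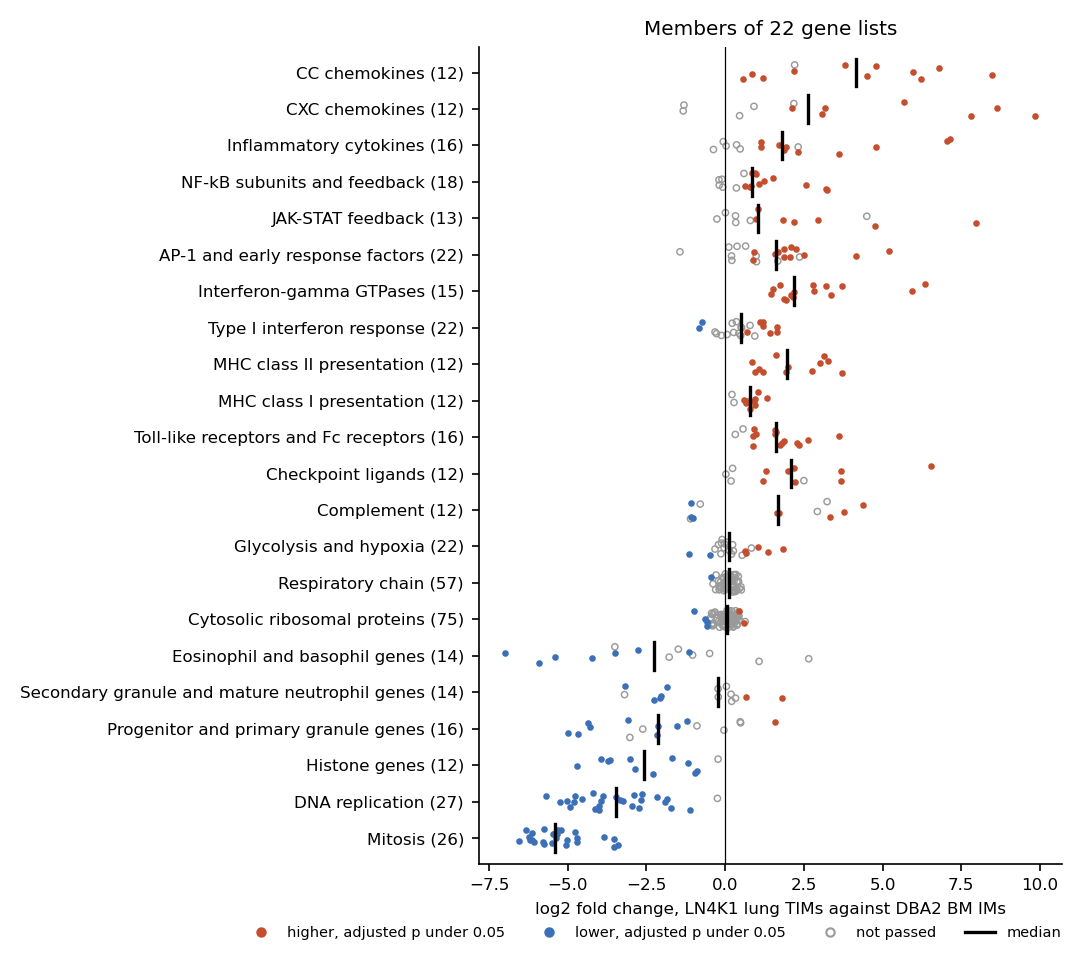
Log2 fold change of each tested member of 22 gene lists (number of members in brackets) for LN4K1 lung TIMs against DBA2 BM IMs, in red where higher and blue where lower at an adjusted p under 0.05, open grey where not passed, with a bar at the list median. Chemokine, cytokine and interferon-gamma lists lie to the right of 0, glycolysis, respiratory chain and ribosomal protein lists lie around 0, and replication and mitosis lists lie to the left.

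Genes of the interferon response fell into a list of which every member rose and a list of which most did not pass the test. Interferon-gamma induces guanylate-binding proteins and immunity-related GTPases above all, while type I interferons mainly induce the IFIT, OAS and MX families. All 15 interferon-gamma GTPases and related genes tested rose (median 2.20, 6 DEGs). Gbp4 had 0.945, 0.459 and 1.01 CPM in BM IMs and 76.8, 68.3, 58.2, 105 and 35.7 CPM in lung TIMs (6.34 ± 0.48, adjusted p = 1.68e-05). Its exons overlap those of Gbp8 and Gbp9, so the split of reads among them is uncertain. Ciita, the master regulator of MHC class II genes, stood at 5.26, 3.58 and 5.55 CPM in BM IMs and at 72.7, 77.3, 38.8, 102 and 42.2 CPM in lung TIMs (3.72 ± 0.39, adjusted p = 0.000122). Gbp6 rose by 3.37 ± 0.31 and Iigp1 by 5.93 ± 0.92.

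Of 22 genes of the type I interferon response, 7 rose, 2 fell and 13 did not pass the test, with a median log2 fold change of 0.50. Without lung library 3, 9 rose and 3 fell. Isg15, a ubiquitin-like modifier, stood at 17, 26.8 and 17.4 CPM in BM IMs and at 64.8, 46.9, 111, 64.2 and 49.5 CPM in lung TIMs (1.65 ± 0.31, adjusted p = 0.00422). All lung libraries were above marrow, and library 3 was the highest. Rtp4 rose by 1.64 ± 0.24, Zbp1, a sensor of viral nucleic acid, by 1.43 ± 0.18 and Isg20 by 1.21 ± 0.21. Rsad2, which encodes viperin, had 18.6, 22.8 and 13.8 CPM in BM IMs and 26.4, 20.3, 29.8, 22.8 and 25.4 CPM in lung TIMs. These ranges overlapped (0.36 ± 0.19, adjusted p = 0.215). Oas3 overlapped too, at 10.5 to 29.3 CPM in BM IMs and 13.9 to 34.6 CPM in lung TIMs (0.22, adjusted p = 0.716). Cmpk2 fell by 0.83 ± 0.15 (adjusted p = 0.00282). Mx1 fell by 0.72 ± 0.23 (adjusted p = 0.0491), a call that was lost on leaving out any library other than lung library 3, so that 1 gene of the list fell in those cases.

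The promoters of list members, whether or not they passed the test, were read for short motifs. The stretch read was the 250 bases before each RefSeq start (GRCm38.p6). The stretches of Isg15, Cxcl9 and Mcm6 are shown because they hold the motifs of 3 programs described here. Capitals mark matches, searched on both strands, only to motifs chosen for each gene. These were the interferon-stimulated response element (GAAANNGAA) in Isg15 and Cxcl9, an NF-kB motif (GGAANNNCC) in Cxcl9 and an E2F motif (TTTGGCGC) in Mcm6. Matches to motifs not chosen for a gene stay in lower case, and Isg15 and Mcm6 both hold such a match to the NF-kB motif. The sequence of Isg15 is that before its start at chr4:156200819-156201068, of Cxcl9 at chr5:92328080-92328329 and of Mcm6 at chr1:128359706-128359955, all read 5′ to 3′ on the minus strand.
Isg15: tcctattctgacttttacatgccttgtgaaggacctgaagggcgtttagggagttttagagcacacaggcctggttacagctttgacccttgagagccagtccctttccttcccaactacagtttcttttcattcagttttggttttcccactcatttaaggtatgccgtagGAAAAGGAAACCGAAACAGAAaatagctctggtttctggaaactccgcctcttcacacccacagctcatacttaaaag
Cxcl9: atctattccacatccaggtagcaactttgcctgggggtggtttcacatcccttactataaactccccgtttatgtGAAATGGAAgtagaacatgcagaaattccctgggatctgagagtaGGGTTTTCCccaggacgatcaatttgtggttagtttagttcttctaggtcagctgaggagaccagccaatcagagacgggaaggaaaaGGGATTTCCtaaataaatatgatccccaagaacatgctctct
Mcm6: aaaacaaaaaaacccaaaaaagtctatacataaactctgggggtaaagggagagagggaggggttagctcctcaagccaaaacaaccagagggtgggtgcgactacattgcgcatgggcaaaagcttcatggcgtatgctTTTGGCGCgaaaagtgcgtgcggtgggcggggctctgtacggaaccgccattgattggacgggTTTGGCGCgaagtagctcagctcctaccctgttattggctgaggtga
In Isg15 the capitals hold 3 overlapping matches to the response element. In Cxcl9 the run nearest the left end is a response element and the other 2 runs match the NF-kB motif on the opposite strand. The response element occurred in 66.7% of 12 promoter windows of the interferon-gamma list and in 36.8% of 19 windows of the type I list, beside 7.13% of 32851 windows over all promoters. The NF-kB motif occurred in 71.4% of 21 windows of the NF-kB list and in 50% of 10 windows of the CXC chemokine list, beside 15.7% of all windows. It also occurred in 36.8% of the type I windows, the same share as the response element, and in 50% of 8 windows of the MHC class II list. The AP-1 motif (TGANTCA) occurred in 3.85% of 26 windows of the AP-1 list, below the 6.75% of all windows. A gene could have more than 1 window. These are matches of letters and not measured binding.

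Antigen presentation genes rose in both classes. All 12 genes tested for MHC class II presentation rose (median 1.96). H2-Ab1 stood at 122, 129 and 144 CPM in BM IMs and at 1118, 1222, 1367, 2095 and 918 CPM in lung TIMs (3.27 ± 0.28, adjusted p = 3.66e-05). Its partner H2-Aa rose by 3.13 ± 0.27 and H2-Eb1 by 3.02 ± 0.30, with lung library 4 the highest for all of them. Of 12 genes for MHC class I presentation 9 rose (median 0.78), and 5 did so without marrow library 3. H2-T23 rose by 0.94 ± 0.11 (adjusted p = 0.000197). B2m, the light chain of class I, had 1875, 1936 and 1886 CPM in BM IMs and 3404, 3102, 6050, 3302 and 3499 CPM in lung TIMs (0.95 ± 0.22, adjusted p = 0.0127). The rise of B2m did not pass on leaving out any BM IM library. Genes of a checkpoint list that holds both ligands and receptors rose in 8 of 12 cases (median 2.08). Cd274, which encodes PD-L1, was at 2.6, 3.32 and 4.04 CPM in BM IMs and at 54.1, 46.8, 34.5, 58 and 30.5 CPM in lung TIMs (3.68 ± 0.30, adjusted p = 2.46e-05), and Havcr2, which encodes TIM-3, rose by 3.67 ± 0.20 (adjusted p = 2.55e-06). Both were separate between the groups in every library.

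Receptors for microbial products and antibodies rose in 14 of 16 cases (median 1.61). Fcgr4, a receptor for IgG, stood at 7.16, 5.37 and 5.49 CPM in BM IMs and at 75.4, 72.6, 80.2, 69.2 and 88.1 CPM in lung TIMs (3.60 ± 0.16, adjusted p = 9.76e-07), a narrow spread in lung. Tlr4, the receptor for lipopolysaccharide, rose by 2.27 ± 0.19 and Fcgr1, the high-affinity IgG receptor, by 2.35 ± 0.17. Scavenger and efferocytosis receptors rose in 8 of 16 cases (median 1.26), among them Clec4n at 4.75 ± 0.20 and Cd36 at 2.20 ± 0.27. Complement genes divided: 5 of 12 rose and 3 fell. C3ar1, the receptor for C3a, rose by 3.34 ± 0.21 (adjusted p = 5.33e-06), and C5ar1 by 1.71 ± 0.20. C3 itself had 940, 1076 and 863 CPM in BM IMs and 614, 551, 282, 476 and 438 CPM in lung TIMs, a fall of 1.10 ± 0.22 on the log2 scale (adjusted p = 0.00608), and Cfp, properdin, fell by 1.08 ± 0.17. Without lung library 4, 5 complement genes fell.

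Enzymes of arginine and itaconate metabolism, which macrophages use against microbes and to limit T cells, rose in 7 of 10 cases (median 1.95), and in 9 without lung library 3. Irg1, which makes itaconate, was at 0.0719, 0 and 0.0634 CPM in BM IMs and at 28.7, 20.6, 26.1, 30.7 and 10.5 CPM in lung TIMs (8.91 ± 0.73, adjusted p = 2.7e-05, and 8.33 without marrow library 2). Arg1, arginase 1, had 0.103, 0.419 and 0 CPM in BM IMs and 34.2, 22.6, 28.7, 38.3 and 45.1 CPM in lung TIMs (7.50 ± 0.85, adjusted p = 0.000204, and 9.23 without marrow library 2). Arg2 rose by 4.82 ± 0.35 (adjusted p = 1.27e-05). Among prostaglandin and leukotriene genes 3 of 14 rose and 3 fell. Ptgs2, the inducible cyclooxygenase, rose by 1.76 ± 0.31 (adjusted p = 0.00309). Its constitutive relative Ptgs1 had 103, 114 and 89.7 CPM in BM IMs and 23, 22.7, 11, 17.8 and 34.5 CPM in lung TIMs and fell by 2.31 ± 0.29 (adjusted p = 0.000426).

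Matrix proteases, their inhibitors and matrix genes rose in 10 of 15 cases (median 2.94), and none fell, or 1 without lung library 3. Mmp12, macrophage elastase, was at or below 0.222 CPM in BM IMs and between 6.48 and 10.4 CPM in lung TIMs, a log2 fold change of 5.86 ± 0.82 (adjusted p = 0.000773) that was 6.46 without marrow library 3 and 5.28 without marrow library 2. Mmp14, a membrane-bound collagenase, had 0.729, 0 and 0 CPM in BM IMs and 27.4, 27.2, 14.4, 31.4 and 17.3 CPM in lung TIMs. Its log2 fold change of 6.52 ± 1.24 (adjusted p = 0.00426) was 14.04 without marrow library 1 and 5.93 without marrow library 2, so its size rests on marrow libraries near 0. Sdc4, the proteoglycan syndecan-4, rose by 9.0 ± 0.52 (adjusted p = 3.96e-06, and 10.05 without marrow library 1). Among adhesion genes 10 of 16 rose and 3 fell, and 1 fell without lung library 4 or 5 or without any BM IM library. Itgb3, integrin beta 3, stood at 60.6, 58.4 and 47.3 CPM in BM IMs and at 13.1, 6.38, 0.5, 9.7 and 4.47 CPM in lung TIMs (-3.09 ± 0.70, adjusted p = 0.0105).

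Of 16 lipid handling genes 6 rose and 3 fell. Apoe, a lipid carrier made by tissue macrophages, had 1811, 674 and 798 CPM in BM IMs and 4678, 4469, 4612, 3569 and 5224 CPM in lung TIMs (1.97 ± 0.32, adjusted p = 0.00182). Iron and heme genes rose in 5 of 13 cases and 1 fell, or 2 without lung library 4. Hfe, a regulator of iron uptake, rose by 1.74 ± 0.12 (adjusted p = 1.02e-05), while the iron exporter Slc40a1 stood at 32.7, 26.6 and 26.2 CPM in BM IMs and at 2.58, 3.57, 0, 1.6 and 2.24 CPM in lung TIMs (-3.90 ± 0.88, adjusted p = 0.0103). Among survival and cell death genes 12 of 20 rose and 1 fell, with none lower without marrow library 2 or 3 and 2 lower without lung library 3. Bcl2a1b, a BCL2-family protector with near-identical copies Bcl2a1a and Bcl2a1d among which reads could be split, rose by 4.10 ± 0.31 (adjusted p = 1.8e-05). Members of the TGF-beta pathway rose in 8 of 18 cases (median 0.84), and in 11 without lung library 3. Inhba, the activin A subunit, had 0, 0.259 and 0.38 CPM in BM IMs and 7.96, 5.95, 9.8, 16.9 and 9.3 CPM in lung TIMs (5.46 ± 0.92, adjusted p = 0.00224, and 6.17 without marrow library 3). Lrp1 rose by 1.33 ± 0.14 (adjusted p = 0.00012).

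Genes of cell division were lower in lung TIMs than in marrow with few exceptions. All 26 mitosis genes tested fell, 22 of them as DEGs, with a median log2 fold change of -5.41. Of 27 DNA replication genes 26 fell, 20 of them as DEGs (median -3.45), and the other gene did not pass. Summed over the lists, mitosis genes had 3879 to 4291 CPM in BM IMs and 119 to 164 CPM in lung TIMs, and replication genes had 2910 to 2981 CPM and 284 to 395 CPM. Because the samples were bulk RNA, fewer dividing cells and less of this RNA in each cell cannot be told apart. Top2a, the topoisomerase of dividing cells, stood at 286, 347 and 347 CPM in BM IMs and at 2.74, 5.68, 0.716, 7.08 and 5.4 CPM in lung TIMs (-6.31 ± 0.59, adjusted p = 6.29e-05). Birc5, survivin, had 253, 265 and 251 CPM in BM IMs and 4.12, 5.97, 5.81, 6.03 and 7.93 CPM in lung TIMs (-5.50 ± 0.19, adjusted p = 3.8e-07). Mcm6, a subunit of the replicative helicase whose promoter is shown above, was at 285, 291 and 275 CPM in BM IMs and at 8.73, 13.4, 4.47, 8.22 and 11 CPM in lung TIMs (-5.03 ± 0.30, adjusted p = 4.93e-06). For all 3 genes no lung library came near the marrow range. Plk1, Bub1b, Nusap1, 2810417H13Rik, Cenpf, Prc1, Spc24, Kif22 and Ube2c completed the cell cycle genes among the 12 steepest falls above the same mean level, with log2 fold changes from -6.24 to -5.45. Histone genes fell in 11 of 12 cases (median -2.57). H2afx had 454, 502 and 460 CPM in BM IMs and 38.8, 38.3, 30.5, 39.5 and 39.9 CPM in lung TIMs (-3.73 ± 0.12, adjusted p = 2.6e-07). The E2F motif occurred in 10.7% of 28 promoter windows of the replication list and in 0.417% of all windows, and the cell cycle homology region TTTGAA occurred in 34.8% of 23 windows of the mitosis list and in 16.0% of all windows. Neither motif was particular to these lists. The E2F motif occurred in 18.2% of 11 windows of the MHC class I list, and TTTGAA in 41.7% of 12 windows of the interferon-gamma list.

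Genes of immature myeloid cells fell in part. Of 16 progenitor and primary granule genes, 9 fell and 1 rose (median -2.14), with 2 higher without lung library 3. Mpo, myeloperoxidase, stood at 1710, 1514 and 1624 CPM in BM IMs and at 45.2, 59.8, 20.1, 62.4 and 80.1 CPM in lung TIMs (-4.99 ± 0.37, adjusted p = 1.48e-05). Elane, neutrophil elastase, had 519, 438 and 494 CPM in BM IMs and 13, 19.1, 6.36, 14.8 and 47.6 CPM in lung TIMs (-4.67 ± 0.54, adjusted p = 0.000225). The progenitor factor Myb fell by 4.30 ± 0.29 (adjusted p = 8.56e-06), whereas the receptor Flt3 was the gene that rose, by 1.58 ± 0.21 (adjusted p = 0.000594). Among secondary granule and mature neutrophil genes, 5 of 14 fell and 2 rose (median -0.22), where 1 fell without marrow library 1 and 4 rose without lung library 3. Ltf, lactoferrin, had 153, 120 and 117 CPM in BM IMs and 19.3, 14.5, 5.79, 6.32 and 29.3 CPM in lung TIMs (-3.19 ± 0.48, adjusted p = 0.0012). Mmp8, neutrophil collagenase, moved the other way, with 256, 201 and 222 CPM in BM IMs and 767, 808, 863, 707 and 1021 CPM in lung TIMs (1.80 ± 0.15, adjusted p = 2.91e-05). Eosinophil and basophil genes fell in 7 of 14 cases (median -2.27), and in 4 without marrow library 1. A Siglec-F- gate, meant in lung to discard eosinophils, is given for the sort of tumor samples and of marrow, and its part was not tested. Prg2, the eosinophil major basic protein, was at 862, 524 and 344 CPM in BM IMs and at 1.07, 8.55, 0.945, 59.6 and 1.62 CPM in lung TIMs (-5.40 ± 1.35, adjusted p = 0.0178). Lung library 4 was the highest of its group, the value was -7.62 without it, and the call was lost without marrow library 1.

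Few members of the ribosomal protein and respiratory chain lists passed the test, beside 24.9% of all genes. Glycolysis genes moved both ways. Of 22 genes of glycolysis and hypoxia 5 rose and 2 fell (median 0.12), where 8 rose and 3 fell without lung library 3 and 1 fell without marrow library 1 or 2 or lung library 2. Slc2a1, the glucose transporter GLUT1, stood at 30.1, 29.7 and 31.8 CPM in BM IMs and at 133, 117, 80.6, 132 and 117 CPM in lung TIMs (1.85 ± 0.18, adjusted p = 7.93e-05), and Hif1a rose by 1.36 ± 0.15 (adjusted p = 0.000188). Hk2, hexokinase 2, had 104, 133 and 128 CPM in BM IMs and 61.7, 54.2, 73, 49.3 and 53.6 CPM in lung TIMs and fell by 1.14 ± 0.15 (adjusted p = 0.000583). Of 75 cytosolic ribosomal protein genes 2 rose and 4 fell (median 0.07), with 0 to 10 falling when 1 library was left out, the 10 without lung library 3 and the 0 without marrow library 2 or 3. No member rose without any of the 3 marrow libraries or without lung library 4 or 5, and 1 rose without lung library 2. Their summed level was 8767 CPM in lung library 3 and 7533 CPM in lung library 5, both above the 5549 to 5939 CPM of marrow, while the other lung libraries lay between 5281 and 5502 CPM. Of 57 respiratory chain genes 1 fell and none rose (median 0.14), while 5 fell and 3 rose without lung library 3, and none fell without any marrow library or without lung library 4 or 5. Their sum was also highest in lung libraries 3 and 5, at 12203 and 10438 CPM, with 8322 to 8671 CPM in the others and 8477 to 8864 CPM in marrow.

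The change in LN4K1 lung was then compared with the change in the LN2E1 model, where each TIM group was set against FVB BM IMs. No library is shared between the 2 models, but line, strain, route and tissue differ together and cannot be told apart. At an adjusted p under 0.05, the difference of the 2 changes was positive for 13.3% and negative for 13.2% of 15182 genes with LN2E1 primary tumors, and positive for 7.25% and negative for 8.14% of 14450 genes with LN2E1 lymph nodes. The lymph node test called 2223 genes in all, and between 1234 and 1315 without DBA2 BM IM library 2 or 3 or FVB BM IM library 1 or 2. Type I interferon genes differed most evenly, since the change in lung was the lower one for 21 of 22 genes against primary tumors and for 22 of 22 against lymph nodes. Against FVB BM IMs, all 22 rose in primary tumors (33.3% of all genes tested there were called higher, median log2 fold change of the list 3.53) and all 22 in lymph nodes (20.2%, median 4.05). The LN2E1 comparisons share the FVB BM IM libraries and are not independent of each other.

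Marrow levels also differed between the strains. Summed over the type I list, DBA2 BM IMs had 1135 to 1498 CPM and FVB BM IMs 345 to 467 CPM, while lung TIMs had 1571 to 2379 CPM, primary tumor TIMs 2933 to 4127 CPM and lymph node TIMs 3873 to 5849 CPM. The TIM groups did not overlap between models in this sum, and neither did the marrow groups. Mean Rsad2 was 4.12 CPM for FVB BM IMs, 183 CPM for primary tumor TIMs and 239 CPM for lymph node TIMs, and its change in lung was lower by 5.11 ± 0.42 on the log2 scale than that in primary tumors (adjusted p = 7.22e-06). Interferon-gamma GTPases had a lower change in lung for 12 of 15 genes in either test, with sums of 493 to 636 CPM for DBA2 marrow, 1998 to 3343 CPM for lung TIMs, 265 to 462 CPM for FVB marrow, 4438 to 5348 CPM for primary tumors and 6137 to 9125 CPM for lymph nodes. Spon1 differed between models in its marrow level, with a mean of 0.0802 CPM for FVB BM IMs beside 53.6 CPM for primary tumor TIMs and 55 CPM for lymph node TIMs. Its change in lung was lower by 5.91 ± 0.78 (adjusted p = 0.000219) against primary tumors and by 5.92 ± 0.77 (adjusted p = 0.000113) against lymph nodes, although 4 of 5 lung libraries had more Spon1 CPM than any LN2E1 library.

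**Figure D3:**
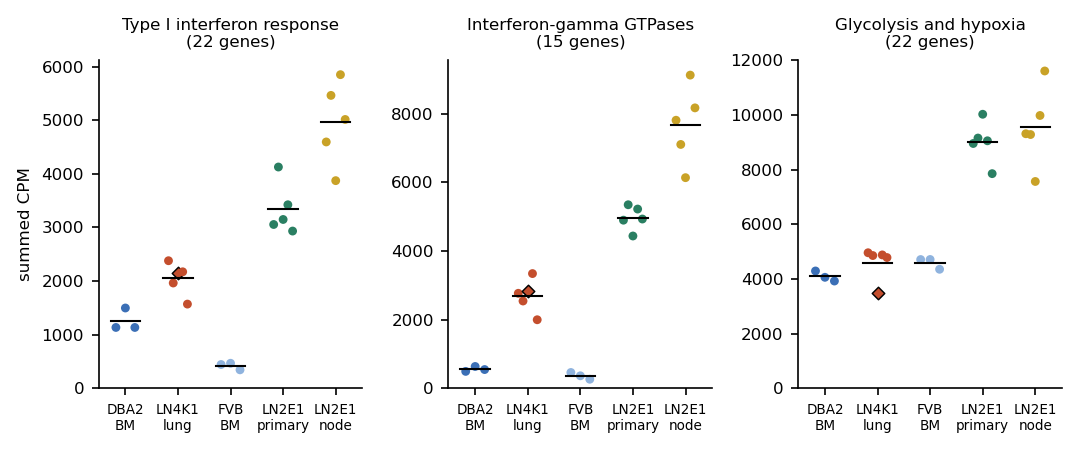
Summed CPM of 3 gene lists in each library of the 5 groups, with bars at the group mean and lung replicate 3 outlined. LN4K1 lung TIMs lie at 1571 to 2379 CPM for the type I list, between their marrow and the LN2E1 TIMs, and overlap their marrow for the glycolysis list, where LN2E1 TIMs lie at or above 7564 CPM.

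Glycolysis genes had a lower change in lung for 15 of 22 genes against primary tumors and for 14 of 22 against lymph nodes. Their sum was 3924 to 4291 CPM in DBA2 BM IMs and 3503 to 4958 CPM in lung TIMs, against 4353 to 4711 CPM for FVB marrow, 7850 to 10022 CPM for primary tumors and 7564 to 11605 CPM for lymph nodes. Ribosomal protein genes went the other way, with a higher change in lung for 41 of 75 genes against primary tumors, which was 22 to 25 genes without marrow library 1 or 2 of either strain. Against lymph nodes the count was 6 of 75, near the 7.25% of all genes, with 0 without FVB BM IM library 1 or 2, 1 to 3 without a DBA2 BM IM library, 22 without lymph node library 1 and 21 with all 5 groups in 1 fit. They had fallen in primary tumors in 70 of 75 cases, where 28.6% of all genes tested were called lower (median -0.73). Respiratory chain genes likewise had a higher change in lung for 45 of 57 genes against primary tumors, after 51 had fallen in primary tumors (median -0.61). The count was 23 to 28 without DBA2 BM IM library 2 or 3 or FVB BM IM library 1 or 2. Against lymph nodes 4 of 57 differed, again near the share over all genes, with 2 without any DBA2 BM IM library, 9 without FVB BM IM library 3 and 11 without lymph node library 1.

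**Figure D4:**
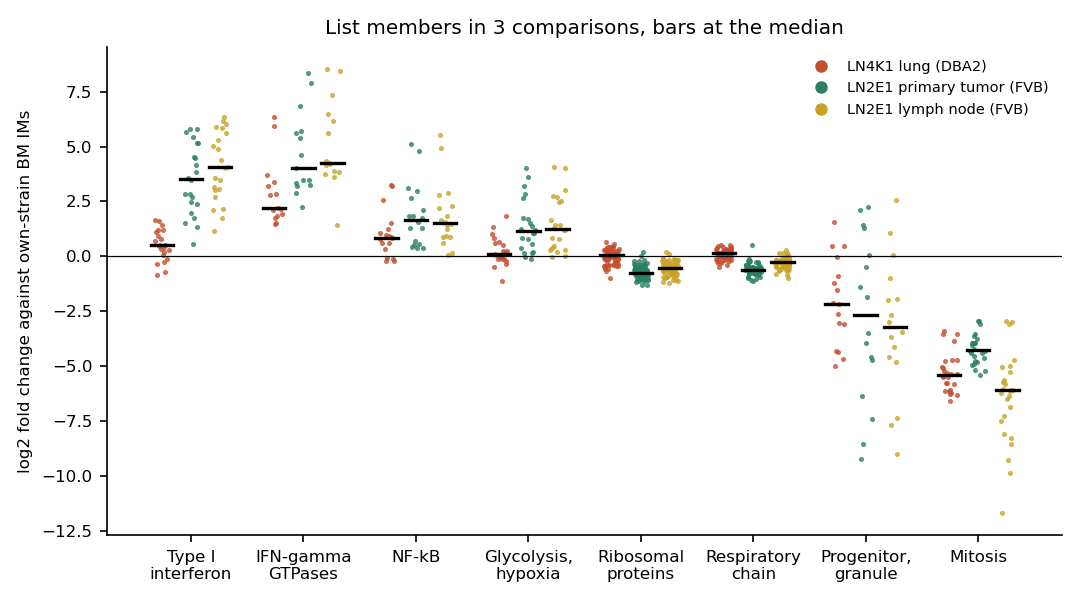
Log2 fold change against BM IMs of the same strain for members of 8 gene lists, in LN4K1 lung TIMs (red), LN2E1 primary tumor TIMs (green) and LN2E1 lymph node TIMs (yellow), with bars at the median. The lists for type I interferon and glycolysis sit near 0.50 and 0.12 in lung and at 3.53 and 1.14 in primary tumors, while mitosis genes lie below 0 in all 3.

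Granule genes differed in the other direction. Mpo had a mean of 2.35 CPM in primary tumor TIMs and its change in lung was higher by 4.20 ± 0.85 (adjusted p = 0.0028), though lymph node libraries ranged from 0.0265 to 31.8 CPM and that difference did not pass (2.68, adjusted p = 0.345). Elane was higher in change by 3.86 ± 0.77 against primary tumors (adjusted p = 0.00255) and by 4.36 ± 1.06 against lymph nodes (adjusted p = 0.0122). For Ngp, a neutrophil granule protein, the difference was 4.98 ± 1.61 (adjusted p = 0.0326) and 6.57 ± 2.10 (adjusted p = 0.0451). The call for Mpo was lost with all 5 groups in 1 fit, those for Ngp in that fit, with DESeq2 and with no filter, and the Ngp call against primary tumors with a replicate block. Both calls for Ngp were lost without any DBA2 BM IM library, without FVB BM IM library 1 or 2 and without lung library 5, and the lymph node call also without FVB BM IM library 3 or lung library 1 or 2. Of the sort genes, Ccr2 had a difference in change against primary tumors that did not pass (0.30, adjusted p = 0.153), and its change was higher by 0.60 ± 0.18 against lymph nodes (adjusted p = 0.0333), a call lost without any DBA2 BM IM library, FVB BM IM library 1 or 2, lymph node library 2 or 5 or lung library 2.

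Markers of cells that the sort should leave out were summed in each library. NK cell markers had 0 to 0.422 CPM in BM IMs and 12.4 to 22.5 CPM in lung TIMs, with 5 of 6 tested genes higher. Gzma, granzyme A, was at 0 in all BM IM libraries and at 4.48, 5.84, 5.47, 4.43 and 9.22 CPM in lung TIMs, which is at least 191-fold higher than the limit of 3 counts. T cell markers had 0.708 to 2.06 CPM in BM IMs and 9.74 to 29.1 CPM in lung TIMs, with 5 of 8 tested genes higher and Cd3e between 0.327 and 1.58 CPM there and at 0 in marrow. Plasmacytoid dendritic cell markers had 89.6 to 109 CPM in BM IMs and 177 to 252 CPM in lung TIMs, with 5 of 6 genes higher and 3 without marrow library 3 or lung library 5. Siglech, the marker nearest to being specific to them, stood at 24.4, 27.1, 4.33, 17.2 and 55.4 CPM in lung TIMs and at or below 0.472 CPM in BM IMs.

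Plasma cell markers had 12.8 to 14.0 CPM in BM IMs and 48.4 to 132 CPM in lung TIMs, with Sdc1 and Prdm1, which monocytes and macrophages can express too, the 2 of 5 genes that rose. Dendritic cell markers had 95.8 to 113.5 CPM in BM IMs and 114.2 to 351 CPM in lung TIMs, with 2 of 9 genes higher and 1 lower. Their sum was highest in lung libraries 3 and 4, mostly through Cd209a, as was the summed level of the MHC class II list, at 12994 and 13919 CPM there and 9352 to 10148 CPM in the other lung libraries. Alveolar macrophage markers, which the gate should leave out, had 764 to 2676 CPM in BM IMs and 2348 to 5495 CPM in lung TIMs, nearly all of it Chi3l3, with 1 of 7 genes higher and 1 lower. Without lung library 3, 2 were higher. Marco, one of their defining genes, was at 0 in BM IMs, at 12.1 CPM in lung library 4 and at most 1.53 CPM in the other lung libraries.

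Lung epithelium markers rose in 7 of 9 cases, and in 3 without any BM IM library, with summed levels of 164 to 215 CPM in BM IMs and 238 to 327 CPM in lung TIMs that were mostly Hopx. The surfactant protein gene Sftpc was at 0 in all BM IM libraries and at 65.5, 23.4, 1.66, 2.38 and 1.27 CPM in lung TIMs, highest in lung libraries 1 and 2. Of 5 tested squamous and tumor epithelium markers 3 rose. The keratin gene Krt8 had 19.6, 35.6, 0.027, 21 and 36 CPM in lung TIMs and at most 0.0299 CPM in BM IMs, so lung library 3 was at the marrow level. The squamous markers Krt5, Krt6a, Krt17 and Dsg3 had no count in any lung library, and Trp63 was at 0 in 4 of 5. Fibroblast markers had 1.76 to 6.03 CPM in BM IMs and 1.81 to 44.6 CPM in lung TIMs, highest in lung library 5, with 2 of 6 tested genes higher and at most 1 without any BM IM library or lung library 5. None of them was lower, or 1 without lung library 3. Neutrophil markers overlapped between groups, at 1610 to 2065 CPM in BM IMs and 1046 to 2178 CPM in lung TIMs. Of 7 tested, none rose and 2 fell, while 2 rose and 3 fell without lung library 3. Eosinophil markers had 417 to 1069 CPM in BM IMs and 6.52 to 71.8 CPM in lung TIMs. Of the tissue macrophage markers, which summed to 913 to 2085 CPM in BM IMs and 3958 to 5606 CPM in lung TIMs, Apoe made up most, and C1qa stood at 6.03 to 9.69 CPM in BM IMs and 1.77 to 7.35 CPM in lung TIMs. The part of these cells in the cytokine, interferon, MHC class II and granule results was not tested. In LN2E1 TIMs some of these sums were higher than in lung TIMs and some lower. Fibroblast markers had 389 to 1158 CPM in primary tumor TIMs, and plasmacytoid dendritic cell markers had 257 to 1589 CPM in lymph node TIMs. Tissue macrophage markers had 2312 to 3019 CPM in primary tumor TIMs. Their part in the differences between models was not tested either.

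**Figure D5:**
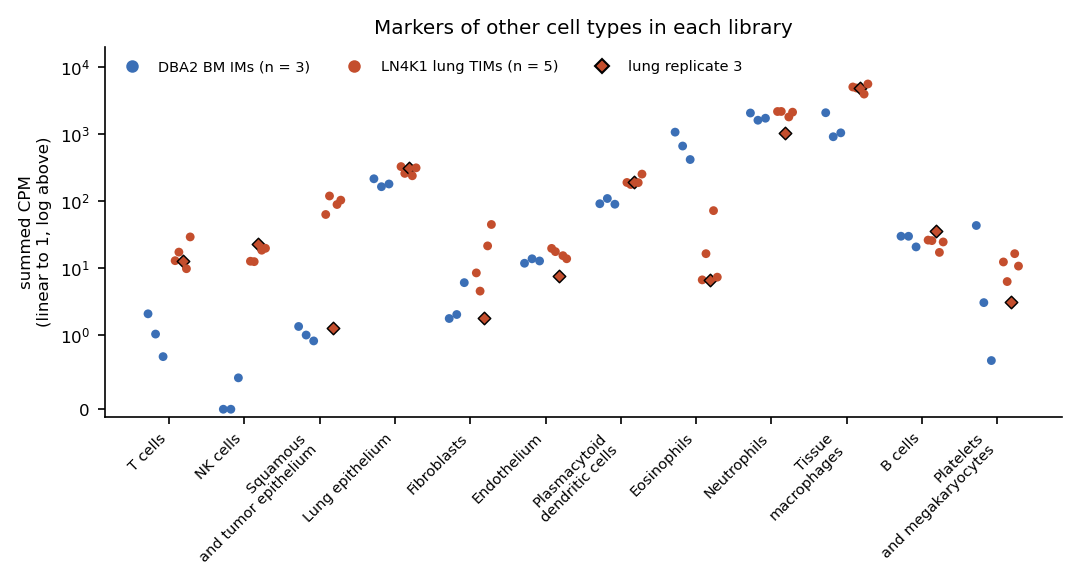
Summed CPM of marker genes of 12 other cell types in each library, linear up to 1 and on a log scale above, with DBA2 BM IMs in blue, LN4K1 lung TIMs in red and lung replicate 3 as an outlined diamond. Of the types plotted, T cell, NK cell, plasmacytoid dendritic cell and lung epithelium markers are among those higher in all 5 lung libraries, eosinophil markers are lower, and the squamous and tumor epithelium sum in lung replicate 3 (1.27 CPM) lies within the marrow range.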

How the data were processed

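RNA from 21 sorted monocyte samples was amplified with the SMARTer Ultra Low kit, made into unstranded Nextera XT libraries and sequenced. The authors trimmed reads, aligned them to mm10 with BBMap and deposited raw gene counts from featureCounts 1.5.2 for 23420 gene symbols. The 8 libraries were tested with edgeR 4.0.16 (quasi-likelihood, robust, TMM, filterByExpr) in R 4.3.3, with Benjamini-Hochberg adjustment, and differences between models with interaction terms. DESeq2 1.42.0, other scaling factors and filters, a replicate block, all groups in 1 fit and leaving out each library were the alternatives. Printed levels are CPM with TMM factors, SEs are approximate (log2 fold change over the root of F) and zero counts allow up to 3 counts.

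The members and gene lists were chosen with earlier results of these data known. Named genes were the 12 steepest non-overlapping changes each way with a mean log2 CPM above 3, in each list up to 4 called members in its leading direction and 2 in the other, the 5 largest differences between models each way, and genes always named (the candidates of the study, sort genes, Lrp8 and Tgfb1). Names of cell type markers and of genes with a bound were given beside their lists. In simulated data with known changes, edgeR found 98.0% of 4-fold and 26.5% of 2-fold changes among 13499 genes of the comparison of lung with marrow. The simulation changed few genes, gave every gene the same dispersion and had no outlying library, so these rates do not give the power in these data. Reads that featureCounts did not assign were not used here, and some genes that the rule names are not reported here.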

Additional observations from a re-analysis of the deposited data

Results flagged for a closer look

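Values far from the rest of their group are listed here as measurements; chance marks about 1 in 20 groups in this way. Lung library 3 was the highest of the 5 lung libraries, with a wide gap to the next, for B2m (6050 CPM), Fcgr1 (260 CPM), Il6 (23.1 CPM), Isg15 (111 CPM), Rtp4 (245 CPM), Sdcbp (1498 CPM) and Spn (27.9 CPM). It was the lowest in the same way for Cish (9.64 CPM), H2afx (30.5 CPM) and the summed glycolysis genes (3503 CPM). Lung library 4 was the highest for H2-Eb1 (597 CPM), Prg2 (59.6 CPM), Marco (12.1 CPM) and the summed eosinophil markers (71.8 CPM). Lung library 5 was the highest for Lrp8 (1.67 CPM), Trp63 (0.100 CPM) and the summed plasmacytoid dendritic cell markers (252 CPM).

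Granule genes were uneven within the LN2E1 groups. Mpo stood at 31.8 CPM in lymph node library 1, and the other 4 lymph node libraries were at or below 1.94 CPM. Ltf (2.79 CPM) and Ngp (14.9 CPM) were highest in lymph node library 2, and Camp was counted only in lymph node library 1 of that group (0.0242 CPM). In primary tumors Ngp (33.6 CPM) and Camp (8.71 CPM) were highest in library 1 and S100a9 (328 CPM) in library 4.

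Changes against marrow that differed between the models passed a test of the difference (edgeR's quasi-likelihood test, Benjamini-Hochberg adjusted). Against LN2E1 primary tumors, the change in lung was lower on the log2 scale for Spon1 (-5.91), Oas3 (-5.58, adjusted p = 2.72e-05), Fam46c (-5.33, adjusted p = 3.24e-05), Rsad2 (-5.11) and Ace (-4.62, adjusted p = 9.94e-05). It was higher for Camp (5.80, adjusted p = 0.0112), Ngp (4.98), Mpo (4.20), Elane (3.86) and Alyref (3.63, adjusted p = 0.0484). Against LN2E1 lymph nodes it was lower for Spon1 (-5.92), Oas3 (-5.79, adjusted p = 2.13e-05), Ace (-5.64, adjusted p = 2.71e-05), Rsad2 (-5.47, adjusted p = 3.33e-07) and Ifit1 (-5.18, adjusted p = 1.28e-05). It was higher for Ngp (6.57), Ltf (6.03, adjusted p = 0.012), S100a9 (4.52, adjusted p = 0.0016), Alyref (4.49, adjusted p = 0.0189), Elane (4.36) and Ccr2 (0.60). Against its own marrow, Ace rose in lung by 1.57 ± 0.39 (adjusted p = 0.0164), a call lost without marrow library 1 or 3, while Fam46c (-0.34, adjusted p = 0.594) and Alyref (0.41, adjusted p = 0.723) did not pass. Alyref ranged from 21.6 to 341 CPM within FVB BM IMs, and both of its calls were lost on leaving out any DBA2 BM IM library or FVB BM IM library 1. The primary tumor call for Alyref was also lost without FVB BM IM library 2, primary tumor library 1, 2, 3 or 4 or lung library 3 or 5.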

How the results depend on the processing

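The comparison of lung with marrow called 3389 genes, and 2134 to 5036 when 1 library was left out. DEGs numbered 405, and 115 to 840 in the same way, with 1533 by DESeq2 after shrinkage and 1569 before it, and 797 with all 5 groups in 1 fit. The genes that differed between models numbered 4022 for primary tumors (2734 to 4708 with 1 library left out) and 2223 for lymph nodes (1234 to 3032). With the replicate number as a block, 1324 genes were called in lung and 0 genes were DEGs by edgeR, where 3398 genes had an unadjusted p under 0.05. Same-numbered marrow and lung libraries had correlations of deviations of -0.05, 0.14 and 0.11, and marrow library 1 was closest to lung library 5 (0.19), so the numbers were not taken as pairs. Of 213 named genes, 205 were called, and none of the called ones changed direction under any alternative; 52 lost the call with the block, and 27 to 30 without a marrow library. Direction turned for genes that did not pass: Oas3 (-0.07 without marrow library 1, up to 0.672 without others), Fam46c (-0.665 to 0.034, above 0 without marrow library 3) and Alyref (-0.46 with the block, and -0.071 without lung library 3 to 0.663 without others). Scaling, filters and fits without robust estimation kept each of these totals within 1.5 times its value, while respiratory chain genes that differed against lymph nodes went from 4 to 2 without a filter. Depth, 3 marrow libraries and unstranded reads limit small changes and low genes.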

Other observations

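Genes of other programs also differed between lung TIMs and marrow. Of 16 lysosomal proteases and enzymes 7 rose and 1 fell (median log2 fold change 0.61, beside 0.03 over all genes), with 11 higher without lung library 3 and none lower without any marrow library or lung library 2, 4 or 5. Ctss, cathepsin S, which trims the invariant chain in MHC class II loading, had 1337, 1220.1 and 1229 CPM in BM IMs and 3652, 3461, 5468, 3771 and 4179 CPM in lung TIMs (1.62 ± 0.17, adjusted p = 0.000106). Lgmn, the endopeptidase legumain, rose by 1.76 ± 0.16 (adjusted p = 4.52e-05). Of 13 growth factor genes 4 rose, and between 1 and 7 did so when 1 library was left out. Hbegf, a ligand of the EGF receptor, stood at 1.02, 0.559 and 0.876 CPM in BM IMs and at 21.1, 14.5, 22.8, 28.4 and 26.7 CPM in lung TIMs (4.71 ± 0.33, adjusted p = 9.91e-06). Of 14 p53 targets and GADD45 genes 7 rose (median 0.95), and 4 without marrow library 1 or 2. Gadd45g rose by 2.73 ± 0.20 (adjusted p = 1.26e-05) and Btg1, a restrainer of proliferation, by 1.41 ± 0.16 (adjusted p = 0.000228).

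Transcription factors of the myeloid lineage divided. Of 20 tested 6 rose and 2 fell, with 4 lower without lung library 3. Cebpe, a factor of granule maturation, had 11.7, 15.6 and 15.1 CPM in BM IMs and 5.25, 4.93, 4.07, 5.39 and 6.13 CPM in lung TIMs, a fall of 1.53 ± 0.19 (adjusted p = 0.00033). Of 18 heat shock and unfolded protein response genes 3 were higher and 2 lower (median -0.03), shares near the 13.9% and 11% over all genes. Without marrow library 3 there were 5 higher, and without lung library 3 there were 6. Hspa8, a constitutive HSP70, rose by 1.24 ± 0.14 and Xbp1 by 1.33 ± 0.13, while Hsp90ab1 stood at 512, 549 and 510 CPM in BM IMs and at 292, 271, 311, 272 and 312 CPM in lung TIMs, a fall of 0.92 ± 0.10 (adjusted p = 0.000123).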
